A study of Drosophila melanogaster with 17 samples.

Results

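The comparison sets 3 pools of C24 larval central nervous system (CNS) sequenced in the pilot round against 3 pools labelled with the same genotype and sequenced in the second round. The libraries were chosen by genotype and round, not by a measured value, and make up 6 of the 17 libraries of the study. They are named here by genotype and replicate number: C24_2, C24_3 and C24_4 came from the pilot, and C24_5, C24_6 and C24_7 from the second round. Each library was made from a pool of about 200 CNS dissected from larvae late in the third instar. C24 larvae carried the elavGAL4 driver, which is active in postmitotic neurons, and the UAS transgene C24 for a hairpin RNA against Smn, and were wild type at the Smn locus itself. The WT larvae set beside them carried the same driver with the empty UAS-PWIZ insertion. X7/C24 larvae, sequenced in a later round, carried the driver, the C24 transgene and the Smn deletion X7. A further pilot pool, C24_1, was set aside by the study for high Pen and low or absent levels of neuronal and glial markers. The study describes Pen as a gene expressed most strongly in imaginal discs. C24_1 enters here only where it is named. The study also advised against C24_3, for a low level of the GAL4 transgene, and took C24_2 and C24_4 as its examples of CNS expression. In a comparison of WT with C24 the study also left out WT_5 and C24_6. It proposes that their raised dispersion came from transcripts of tissue outside the CNS, though of fairly small magnitude. C24_3 and C24_6 are kept in the comparison here, and values without C24_3 are given where it decides them. The titles name all 6 pools C24, but the genotype field of the labels numbers them onward from one pool to the next, and whether the rounds came from the same stocks and crosses is not stated in the sources used here.

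The larval CNS consists of the brain lobes and the ventral nerve cord, and several small organs are attached to it. The ring gland sits on top of the brain and makes the steroid ecdysone, juvenile hormone and the adipokinetic hormone. The lymph gland, with its blood cell precursors, lies behind it along the aorta, and the eye and leg imaginal discs are joined to the brain and nerve cord by stalks. A dissected CNS can therefore carry variable amounts of these tissues. Poly-A selection retains a transcript by its tail, and broken RNA loses more of a long transcript than of a short one, so exon length was examined alongside the tissue genes. What attached tissue or transcript loss contributed to a difference between rounds was not tested. With bulk samples, fewer cells of a type and less RNA per cell cannot be told apart.

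The rounds differed in more than the date. The cDNA that went into the pilot libraries was 6, 4 and 3 ng for C24_2, C24_3 and C24_4, and 13, 7 and 12 ng for C24_5, C24_6 and C24_7 in the second round. The version of the library kit and of the sequencing software also changed between rounds, and these cannot be told apart from one another or from the larvae used. The kit set, A or B, was crossed with the round: C24_4 and C24_7 had set A, and the other libraries had set B. The pilot libraries held 20084597, 10928843 and 19070906 counts, and the second-round libraries 18432613, 20234140 and 19979635. C24_3 was the shallowest of the 6, and at these depths 3 counts, the limit that a count of 0 allows, corresponded to between 0.148 and 0.275 CPM, the count of a gene scaled to the size of its library. Intervals and limits of this kind cover counting error only. Genes with at least 1 count numbered 11566 ± 561 in the pilot and 11768 ± 174 in the second round (SD, n = 3 each; exact permutation test, two-sided p = 0.7). With 3 against 3 libraries this test cannot go below 0.1.

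Across the 9385 genes that passed the filter on low counts, 199 (2.12%) differed between the rounds at an adjusted p under 0.05 in edgeR's quasi-likelihood test. Of these, 198 genes (2.11% of those tested) were higher in the pilot and 1 (0.0107%) was lower. The adjusted p of the called genes lay close to the threshold, with 0.0088 as the lowest. At an unadjusted p under 0.05 the same test counted 3599 genes (38.3%), split almost evenly into 1802 higher and 1797 lower. For 45.3% of all genes tested the values of the rounds did not overlap, with 23.9% higher and 21.5% lower in all 3 pilot libraries. The number of calls rested on single libraries: it was 0 without C24_2, C24_5, C24_6 or C24_7, 13 without C24_4 and 303 without C24_3. The counts at an unadjusted p under 0.05 in the 4 fits without a call were 3561, 1705, 4043 and 1651. DESeq2 called 2233 genes and limma-voom 1, which was CG42807. The calls below are therefore given with the values of every library.

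Libraries of a round did not lie equally close to each other. The biological coefficient of variation, the spread between libraries beyond counting error, was 21.75% within the pilot and 16.13% within the second round. It fell to 9.56% in the pilot without C24_3 and to 6.99% in the second round without C24_6. C24_6 correlated as well with pilot libraries C24_2 and C24_4 (Pearson's r = 0.988 for both, across 9385 genes of log2 CPM) as with its own round (0.987 with C24_5 and 0.984 with C24_7). C24_3 was the most distant, with r of 0.914 and 0.908 to C24_5 and C24_7. These are correlations across genes, which are not independent replicates. With C24_3 and C24_6 both left out, an alternative chosen after the data were seen, 3969 of 9490 genes passed the threshold, 2005 higher and 1964 lower, and all 199 genes were among them.

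The level of a gene in the pilot followed its exon length. For each library the log2 CPM of every gene was taken relative to the mean of the second round, and its median was formed over genes of similar summed exon length. Genes under 1 kb stood at 0.38 in C24_2, 0.85 in C24_3 and 0.40 in C24_4, and at -0.10, 0.22 and -0.12 in C24_5, C24_6 and C24_7. Genes of at least 8 kb stood at -0.63, -1.44 and -0.67 in the pilot libraries, and at 0.19, -0.53 and 0.34 in the second round. Short genes were thus high and long genes low in all pilot libraries, most of all in C24_3. C24_6, the second-round library with the least cDNA, leaned the same way as the pilot.

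**Figure D1:**
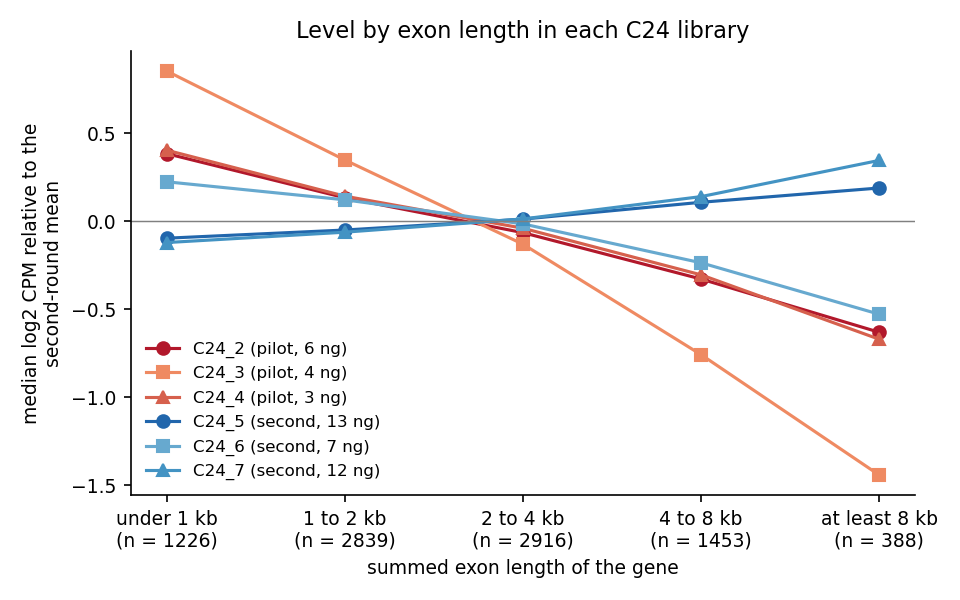
Median log2 CPM of genes in 5 classes of summed exon length, relative to the mean of the second round, with 1 line for each of the 6 C24 libraries. The pilot lines fall from short to long genes, C24_3 most steeply (0.85 to -1.44), and C24_6 falls with them (0.22 to -0.53) while C24_5 and C24_7 rise. The second-round libraries are set against their own mean, so a fall in C24_6 brings a rise in C24_5 and C24_7 with it.

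A length index was formed for each library as the median of genes of at least 4 kb minus that of genes under 1 kb. It was -0.75, -1.74 and -0.77 in C24_2, C24_3 and C24_4, and 0.22, -0.50 and 0.29 in C24_5, C24_6 and C24_7. The rounds did not overlap (-1.09 ± 0.57 against 0.00 ± 0.44, SD, n = 3 each), and the exact permutation test gave the smallest p it allows (two-sided p = 0.1). The median log2 fold change between rounds, pilot minus second round, passed from 0.54 for 1226 genes under 1 kb through 0.20, -0.09 and -0.46 to -0.90 for 388 genes of at least 8 kb. The same order held among weakly and strongly expressed genes. Among the genes of lowest expression the medians ran from 0.46 to -1.13, and among those of highest expression from 0.83 to -0.86, with the genes split evenly into low, middle and high.

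The calls were distributed along this gradient. Of genes under 1 kb, 119 (9.71%) were called higher in the pilot, against 2.11% of all genes tested, and of genes between 1 and 2 kb 50 (1.76%) were. None of the 388 genes of at least 8 kb was called in either direction, although 194 of them (50%) were lower in every pilot library than in any of the second round, against 21.5% of all genes. The lone gene called lower was CG43366, a gene of 7712 exon bases on chromosome 2R (5893895 to 5931363, build BDGP6). It had 1.45, 1.26 and 1.49 CPM in the pilot and 4.01, 2.91 and 4.39 CPM in the second round (log2 fold change -1.41 ± 0.24 SE, adjusted p = 0.0463). With the length trend removed its fold change was -0.72 (adjusted p = 0.0822).

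To set the length gradient aside, a smoothed trend of level on exon length was taken out of each library before the same test. Then 445 of 8822 genes with a known length (5.04%) passed the threshold, 301 (3.41%) higher and 144 (1.63%) lower in the pilot. Of the 199 genes called before, 164 were called again, all in the same direction. The spread between libraries fell from 19% to 12.1%. The calls still rested on the second round: 2 remained without C24_5 or without C24_7 and 82 without C24_6. Without C24_2, C24_3 or C24_4 the numbers were 853, 473 and 166.

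The genes of the ring gland differed most among all lists of tissue genes. Of the 10 genes on the list, all were tested and all were higher in each pilot library than in any second-round library, 8 were called higher and none lower, and the median log2 fold change was 2.30. Over all genes tested, 23.9% were higher in each pilot library, 2.11% were called higher, and the median was 0.00. The list and its genes were known from earlier results of these data to vary between libraries. After removal of the length trend the median was 1.75 over the 9 genes with a known length, and 7 of these were called. The calls depended on which library was left out: 8 genes were called without C24_3, 6 without C24_4 and none without C24_2, C24_5, C24_6 or C24_7. The median stayed between 2.03 and 2.58 in these fits.

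The 6 listed enzymes of ecdysone synthesis were called. spok (spookier, a cytochrome P450 of an early step; chromosome 3R, 3322810 to 3354486) had 384, 500 and 204 CPM in C24_2, C24_3 and C24_4. In C24_5, C24_6 and C24_7 it had 54.2, 66.8 and 85.6 CPM. The pilot mean of 363 ± 149 CPM thus stood well above that of 68.9 ± 15.8 CPM in the second round (SD, n = 3 each; log2 fold change 2.40 ± 0.34 SE, adjusted p = 0.0458). phm (phantom, the P450 that adds the hydroxyl group at carbon 25; chromosome X, 18685766 to 18688433) had 149.5, 133.5 and 64.8 CPM in the pilot and 18.9, 19.9 and 29.2 CPM in the second round (log2 fold change 2.36 ± 0.34 SE, adjusted p = 0.0458). C24_4 was the lowest pilot library and C24_7 the highest second-round library for both genes, and a gap remained between them.

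The other enzymes of this pathway had the same order of rounds. nvd (neverland), which converts cholesterol at the first step, had 40.0, 64.9 and 18.3 CPM in the pilot against 4.76, 5.95 and 8.41 CPM. sad (shadow), a P450 of a late step, had 97.6, 94.7 and 49.8 CPM against 14.0, 15.7 and 21.1 CPM. Their log2 fold changes were 2.68 and 2.25, and those of dib (disembodied, another late P450) and sro (shroud, a dehydrogenase) were 1.67 and 2.11. All 4 were called, with adjusted p between 0.0458 and 0.0463. CG4688, which current annotation names GstE14 and which is the glutathione transferase noppera-bo of the same tissue, was among the genes with the largest rise. It had 16.5, 23.1 and 9.02 CPM against 1.72, 1.97 and 3.75 CPM (log2 fold change 2.70, adjusted p = 0.0463). CG11762, now called ouib, encodes a zinc finger factor of the prothoracic gland and was looked up after its values were seen. It had 7.12, 9.82 and 4.05 CPM against 1.55, 2.20 and 2.25 CPM and missed the threshold (adjusted p = 0.0577).

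The genes of the other ring gland cells moved in the same direction. jhamt (juvenile hormone acid methyltransferase), the enzyme of the corpus allatum that completes juvenile hormone, had 6.30, 10.6 and 3.02 CPM in the pilot and 0.344, 0.797 and 0.750 CPM in the second round. Its log2 fold change was 3.35 ± 0.54 SE (adjusted p = 0.0463). Akh, the adipokinetic hormone of the corpora cardiaca, had 30.5, 53.4 and 19.5 CPM against 6.02, 7.03 and 6.75 CPM (log2 fold change 2.37 ± 0.36 SE, adjusted p = 0.0458). The 2 listed genes that were not called were tor (torso), the receptor for prothoracicotropic hormone, with a log2 fold change of 1.05, and Start1, a lipid transfer gene, with 0.26. Start1 had 81.2, 73.7 and 68.1 CPM in the pilot and 62.8, 60.3 and 63.5 CPM in the second round, and its exons overlap those of SIFa in BDGP6. The calls thus held genes of the prothoracic gland, the corpus allatum and the corpora cardiaca. Exons of the called genes sad, sro and dib also overlap those of another gene. Over all genes called, 68 of 199 had such an overlap.

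**Figure D2:**
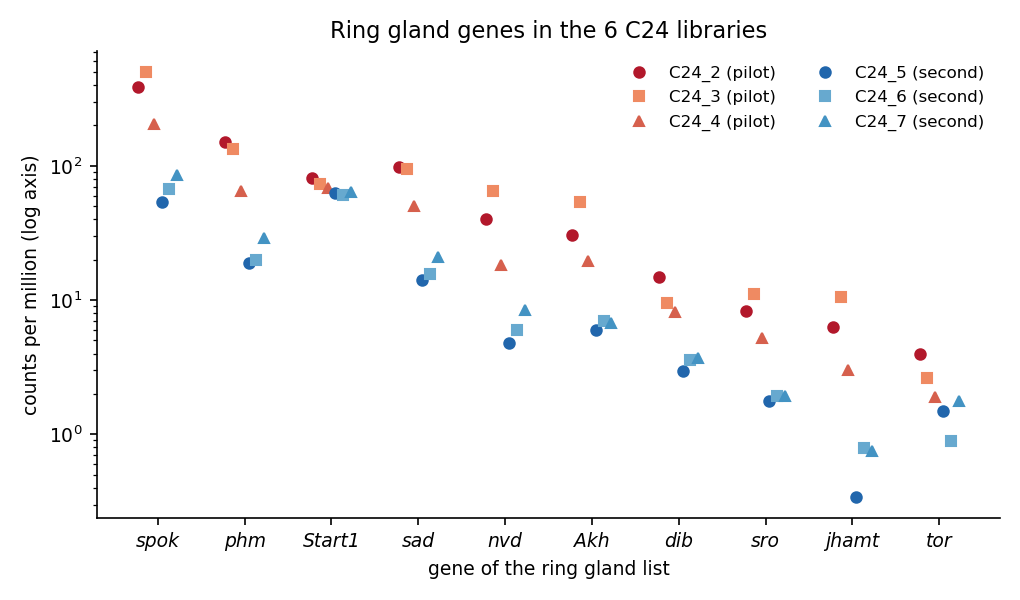
CPM (log axis) of the 10 listed ring gland genes in the 6 C24 libraries, red for the pilot and blue for the second round. For every gene the 3 pilot points lie above the 3 second-round points, with the smallest gap for Start1, and C24_6 lies with C24_5 and C24_7.

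The ring gland genes and the length index were set side by side for each library. Without Start1, the 9 remaining genes summed to 755, 894 and 384 CPM of total counts in C24_2, C24_3 and C24_4, and to 98.9, 129 and 149 in C24_5, C24_6 and C24_7. C24_6, whose length index of -0.50 lay toward the pilot, had a sum between its 2 round mates. X7/C24_1, X7/C24_2 and X7/C24_3 had length indices of 0.02, 0.10 and 0.13, as in the second round, and sums of 656, 1020 and 859. X7/C24_4 had a length index of -1.17 and a sum of 112. The lowest indices of all, -2.34 in WT_1, -4.83 in WT_2 and -5.85 in C24_1, came with the highest sums, 1620, 1210 and 1190. Among the 6 C24 libraries compared, the pilot libraries had both the lowest indices and the highest sums. In the X7/C24 libraries the order was the other way round. Among the other WT libraries, WT_3 of the pilot had an index of -1.47 and a sum of 961, and WT_4, WT_5 and WT_6 of the second round had indices of 0.29, -0.01 and 0.32 and sums of 101, 96.2 and 49.6.

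**Figure D3:**
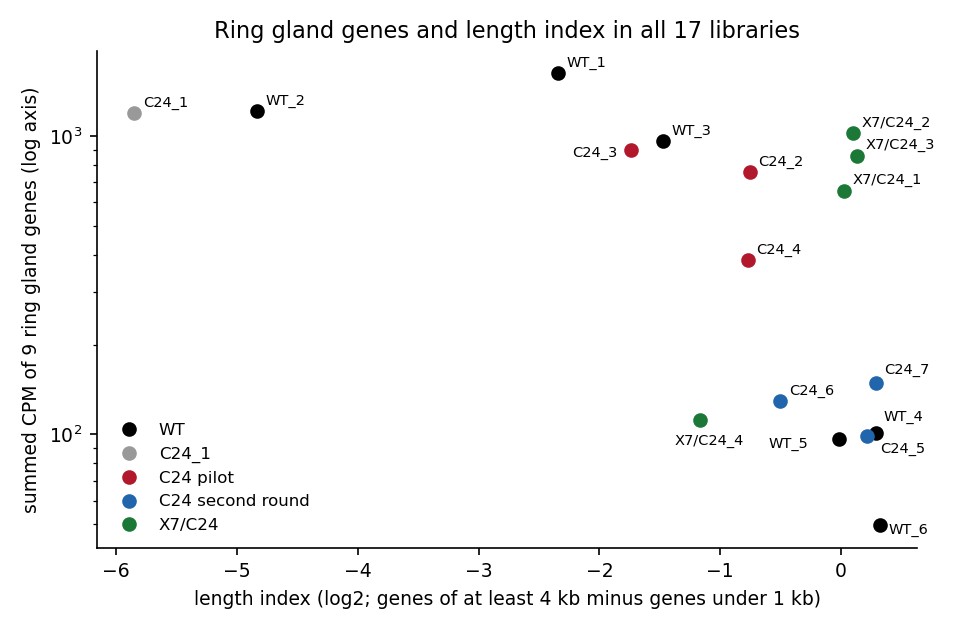
Summed CPM of 9 ring gland genes (log axis, Start1 left out) against the length index of each of the 17 libraries, coloured by group. X7/C24_1 to X7/C24_3 combine high sums (656 to 1020) with an index near 0, while X7/C24_4 combines a sum of 112 with an index of -1.17.

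Genes of blood cells were a further group in which some members rose. On the hemocyte list 7 of 9 genes were tested, and 1 was called higher, beside 2.11% of all genes, and none lower. The median log2 fold change was 0.14, or 0.71 with the length trend removed. The called gene was eater, a phagocytosis receptor, with 2.62, 4.14 and 4.87 CPM in the pilot and 1.03, 0.656 and 0.696 CPM in the second round (log2 fold change 2.28 ± 0.33 SE, adjusted p = 0.0458). Hml (Hemolectin, a clotting protein of plasmatocytes) had 6.01, 9.37 and 8.87 CPM against 2.23, 2.11 and 5.30 CPM. It missed the threshold (adjusted p = 0.089) and passed it with the length trend removed (log2 fold change 2.43, adjusted p = 0.0305), as a gene of 11756 exon bases. The most abundant listed genes were crq, Pxn and Cg25C, which glia and other cells can also express, and they had log2 fold changes of -0.03, -0.81 and 0.14, none of them called. nimC1 and CG8193 are also on the list. They were looked up after their values were seen, and neither separated the rounds. nimC1 had 3, 0 and 2 counts in the pilot and 0, 0 and 2 in the second round. CG8193 had 6.05, 26.3 and 19.8 CPM against 5.96, 6.75 and 9.91 CPM (log2 fold change 1.19, adjusted p = 0.127).

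Further blood cell genes off the list were picked out after their values had been seen and are given as a description. He (Hemese, a surface protein of hemocytes) had 2.66, 7.39 and 3.89 CPM in the pilot and 0.229, 0.141 and 0.482 CPM in the second round. Summed over libraries these were 213 and 16 counts, a ratio of 14.9 with an exact 95% interval of 8.98 to 26.6. srp (serpent), the GATA factor of blood cell and fat body precursors, had 2.66, 4.78 and 3.23 CPM against 0.630, 0.375 and 0.857 CPM. nimB4, of the Nimrod family of phagocytosis genes, had 1.07, 1.53 and 1.28 CPM against 0.115, 0.141 and 0.214 CPM. He, srp and nimB4 were called (adjusted p = 0.0458 for each). He and srp were as low in C24_6 as in its round mates.

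Genes over 4 kb that were called higher were few, and they were looked up after the test. They were srp, pnr (pannier, another GATA factor), Mf (Myofilin, a protein of muscle thick filaments), TepI (a thioester protein of the immune response) and CG42816. TepI had 8.28, 8.56 and 6.82 CPM against 2.58, 1.41 and 3.16 CPM, and CG42816 had 9.54, 21.8 and 8.20 CPM against 1.83, 1.83 and 1.13 CPM. These 5 genes were 0.344% of the 1453 genes of 4 to 8 kb, beside 2.11% of all genes called higher. The median of that class fell by 0.46 on the log2 scale. The 5 genes, picked by their calls, rose by between 1.43 and 3.02.

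Other tissue lists had few or no calls. In the fat body list, 0 of 7 genes were called (median log2 fold change -1.20, and -1.02 with the trend removed). Its storage protein Lsp1gamma had 24.02, 5.50 and 4.92 CPM in the pilot and 26.1, 44.1 and 22.0 CPM in the second round, so that C24_2 lay with the second round. The salivary gland list had 0 calls of 7 (median -0.62), and its glue gene Sgs5 reached 16.2 CPM in C24_6 against 3.11 to 5.33 CPM in the other libraries. The muscle list had 0 calls of 13 (median 0.80). The cuticle list had 0 of 7 (median 1.42). Of its 7 genes, 5 were higher in all pilot libraries, beside 23.9% of all genes and 55.6% of genes under 1 kb. The median exon length of the list was 834 bases. With the trend removed its median was 0.99, and 1 gene was called higher. Lcp4 had 5.57, 8.47 and 2.97 CPM against 0.745, 1.55 and 1.61 CPM and missed the threshold (adjusted p = 0.0644). Trachea genes (0 of 6) had a median of 0.44, imaginal disc genes (0 of 10) of -0.20, eye disc genes (0 of 5) of -0.03 and the 2 testis genes tested of -0.28. No midgut gene and no replication histone gene passed the filter, and their summed levels stayed at or below 3.23 and 0.541 CPM in each of the 6 libraries.

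No gene on the neuron, glia and neuroblast lists was called, although the log2 fold changes of the neuron list ran from -2.18 to 0.51. elav, the neuronal RNA-binding protein whose promoter drives GAL4 here, had 2141, 1795 and 1903 CPM in the pilot and 2628, 2103 and 2425 CPM in the second round. Its log2 fold change was -0.29 ± 0.13 SE (adjusted p = 0.136), and 0.66 (adjusted p = 0.113) with the length trend removed. repo, the homeodomain factor of glia, had 163, 135 and 163 CPM against 158, 143.5 and 166 CPM, so that the rounds overlapped. The levels of Pen, an importin alpha, lay between 357 and 454 CPM in the pilot and between 395 and 430.5 CPM in the second round. Usp7, a ubiquitin protease, had 552, 437 and 512 CPM against 640, 502 and 632 CPM. These 4 genes and the members of the neuron, glia and neuroblast lists (medians -0.35, 0.16 and -0.08, with 0 calls of 15, 10 and 8 genes) were expressed in all 6 libraries.

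The members of the neuron list with a known length had at least 2282 exon bases, and the 2 described here, neither of them called, lay on either side of 0. brp (bruchpilot), the scaffold of the presynaptic active zone with 13371 exon bases, had 110, 18.6 and 91.0 CPM in the pilot and 360, 127 and 458 CPM in the second round. C24_6 was thus nearer to C24_2 than to C24_5. Snap25, a vesicle fusion gene of 2282 exon bases, had 176, 240 and 202 CPM against 134, 167 and 134 CPM. The median of the neuron list was 0.28 after the length trend was removed.

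Smn, the target of the hairpin, was carried by both rounds under the same transgene. It had 83.7, 113 and 81.3 CPM in the pilot and 56.7, 68.2 and 57.3 CPM in the second round. Its log2 fold change was 0.61 ± 0.16 SE and missed the threshold (adjusted p = 0.084), and it was 0.22 (adjusted p = 0.0911) with the trend on length removed, for a gene of 1086 exon bases. Reads from Smn sequence in the hairpin transgene cannot be told apart from those of the gene in these counts. The paper mapped reads along Smn in WT and C24 libraries and saw no marked difference in the targeted region. Its quantification from the part of the gene outside the target was similar.

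The lists of long genes were low in the pilot. Of 12 giant cytoskeletal and matrix genes, none was called, 10 were lower in every pilot library than in any second-round library, and the median log2 fold change was -1.53. The share without overlap in this direction was 21.5% for all genes and 50% for genes of at least 8 kb. futsch, a microtubule-associated protein of axons, had 138, 32.5 and 144 CPM in the pilot and 489, 207 and 734 CPM in the second round (log2 fold change -2.18 ± 0.64 SE, adjusted p = 0.089). Ank2, the ankyrin of the axonal skeleton, had 1162, 802 and 1359 CPM against 2583, 1478 and 2791 CPM (log2 fold change -1.04 ± 0.28 SE, adjusted p = 0.0868). C24_3 was the lowest library and C24_6 the lowest of the second round for both genes. The median was -0.36 after the length trend was removed, and Megalin, an endocytic receptor, was called lower (log2 fold change -0.81, adjusted p = 0.0492). Single genes then lay on either side of 0. futsch had a log2 fold change of -0.85 (adjusted p = 0.071), and that of Ank2 changed sign to 0.75 (adjusted p = 0.144).

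Ion channel genes (0 calls of 16) had a median of -1.02, and all 16 had negative fold changes. cac, the calcium channel of presynaptic release, had 189, 123 and 214 CPM in the pilot against 312, 188 and 356 CPM. para, the sodium channel of action potentials, had 91.1, 27.0 and 74.4 CPM against 152, 67.6 and 226 CPM. In both genes C24_6 fell among the pilot values. The median became -0.14 with the trend removed, and cac was then called higher (log2 fold change 0.41) if C24_2 was left out. Axon guidance and adhesion genes (0 calls of 26) moved from -0.67 to 0.11 and ecdysone response genes (0 of 19) from -0.20 to 0.29. In the latter, br (broad), an early target of ecdysone, had 1618, 1443 and 1775 CPM against 2564, 1791 and 2493 CPM (adjusted p = 0.0942).

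The lists of short genes were high in the pilot. Of 83 cytoplasmic ribosomal protein genes tested, 45 were called higher and none lower, beside 2.11% of all genes. All 83 had positive fold changes, with a median of 0.97, and 82 were higher in every pilot library than in any second-round library. That held for 23.9% of all genes and 55.6% of genes under 1 kb. Of genes under 1 kb, 9.71% were called higher, and the median exon length of the list was 921.5 bases. The summed level of the list was 48000, 71600 and 51500 CPM in the pilot and 28900, 33800 and 28800 CPM in the second round. RpL41, the shortest ribosomal protein, had 136, 271 and 132 CPM against 35.7, 50.9 and 34.0 CPM (log2 fold change 2.16 ± 0.32 SE, adjusted p = 0.0458). RpS15Aa had 999.5, 1604 and 1004 CPM against 547, 687 and 527 CPM and missed the threshold (log2 fold change 1.03 ± 0.22 SE, adjusted p = 0.0617). On removal of the length trend the median was 0.52 over 78 genes, and 49 of them were called higher. With 1 library left out, 71 were called without C24_3 and none without any of the other libraries, while the median stayed between 0.79 and 1.10. With C24_3 and C24_6 both left out all 83 were called. Several of these genes have close paralogs or embedded small nucleolar RNAs, and their counts are uncertain to that extent.

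Of 23 genes of oxidative phosphorylation, 6 were called higher, beside 2.11% of all genes, and all 23 were positive, with a median of 0.67. cype, a small subunit of cytochrome oxidase, had 60.8, 103 and 63.0 CPM in the pilot against 20.5, 28.2 and 19.9 CPM (log2 fold change 1.72 ± 0.25 SE, adjusted p = 0.0458). ATPsyn-beta, a larger subunit of ATP synthase encoded by 2386 exon bases, had 1534, 1961 and 1579 CPM against 1237, 1390 and 1222 CPM (log2 fold change 0.40, adjusted p = 0.0943). The median was 0.28 with the trend removed, and 7 genes were called. Mitochondrial ribosomal proteins had a median of 0.50 and 3 calls of 71, all higher (mRpL12, mRpL13 and mRpL33). Of all genes 2.11% were called higher, and of genes under 1 kb 9.71%. The median exon length of this list was 778.5 bases. With the trend removed its median was -0.03, with 4 genes called higher and 3 lower.

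**Figure D4:**
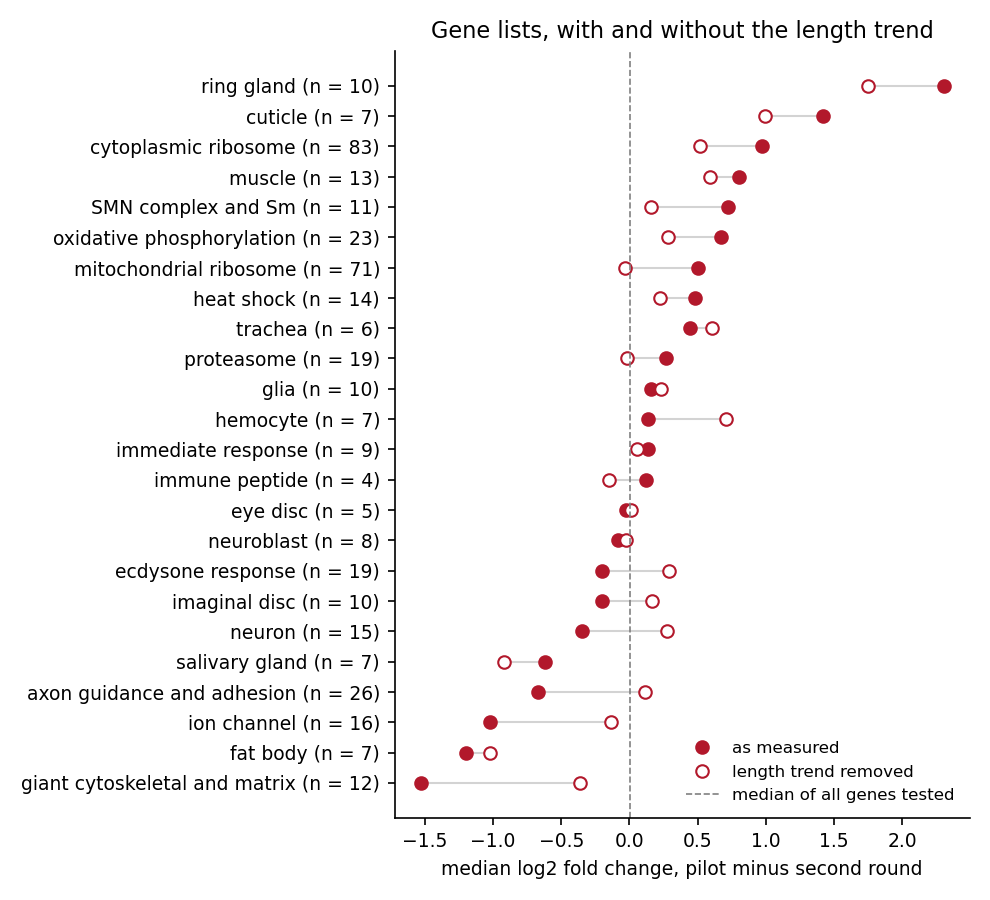
Median log2 fold change (pilot minus second round) of each gene list with more than 2 genes tested, as measured (filled) and with the trend on exon length removed (open; genes without a known length left out). The ring gland list stays highest (2.30 and 1.75), while the lists of ion channel, guidance and giant genes move toward the median of all genes.

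The list of the SMN complex and Sm proteins, which holds the partners of the silenced gene, had 2 calls of 11, both higher. Its median was 0.72, and 0.16 with the trend removed. Of all genes 2.11% were called higher, and of genes under 1 kb 9.71%. SmG, of the ring of Sm proteins around spliceosomal RNAs, had 57.3, 91.2 and 55.9 CPM in the pilot and 25.1, 31.4 and 22.8 CPM in the second round (log2 fold change 1.36, adjusted p = 0.0463). The other called gene was SmB. rig (rigor mortis), the Gemin5 homologue and with 4123 exon bases the longest of the list, had a log2 fold change of -0.27. Heat shock genes (0 calls of 14, median 0.48), immediate response genes (0 of 9, median 0.13), immune peptides (0 of 4, median 0.12) and proteasome subunits (0 of 19, median 0.26) had no calls. Hsp70Ba was highest in C24_2 (6.83 CPM) and Hsp70Bc in C24_3 (17.4 CPM). The Hsp70 copies are nearly identical, so reads cannot be assigned to one of them with certainty.

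The insulin-like peptides of the brain, also looked up after the test, are short genes that rose. Ilp2 had 130, 162 and 139 CPM in the pilot against 66.5, 89.8 and 69.1 CPM, and Ilp5 had 63.8, 82.4 and 79.7 CPM against 32.5, 45.9 and 34.8 CPM (adjusted p = 0.0463 for both). Without the length trend their log2 fold changes were 0.31 and 0.20, and neither was called.

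Further large rises were found in genes of mixed or unknown role. Nplp4, a neuropeptide-like precursor of 528 exon bases, had 18.0, 22.0 and 14.2 CPM against 1.72, 3.89 and 2.62 CPM (log2 fold change 2.70 ± 0.31 SE). lectin-28C had 4.31, 9.01 and 6.46 CPM against 0.458, 0.750 and 1.02 CPM (log2 fold change 3.12 ± 0.39 SE). Both had an adjusted p of 0.0458. mRpL33 and CG14482, now UQCR-6.4 of respiratory complex III, rose by 2.47 and 2.41 on the log2 scale. CG42807, an unnamed gene, had 4.60, 5.32 and 4.46 CPM against 0.286, 0.375 and 0.268 CPM. It had the lowest adjusted p of all (0.0088) and was called in 18 of the 23 alternative settings in which it was tested.

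A few genes marked single libraries. In C24_3, Nplp2 had 16.2 CPM against at most 3.13 CPM elsewhere, and CG42500 had 5.41 CPM against at most 1.79 CPM. In C24_7, the muscle myosin Mhc had 7.45 CPM against 1.53 to 2.67 CPM, and CG11000 had 26.9 CPM against 1.17 to 13.1 CPM. CG8997 had 7.39 CPM in C24_5 and no more than 1.23 CPM in any other library, and CG9021 was highest in C24_4 (5.38 CPM against at most 2.06 CPM). C24_6 had the highest Sgs4 (6.47 CPM against at most 3.18 CPM) and Eig71Ee (5.20 CPM against at most 2.56 CPM), genes of the late larval salivary gland.

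A pair of genes, singled out after their values were seen, separated the rounds nearly as presence and absence. CG31294 (chromosome 3R, 15715505 to 15716585) had 126, 149 and 132 counts in the pilot libraries and 0, 0 and 4 in C24_5, C24_6 and C24_7. The ratio of the sums was 114, with an exact 95% interval of 44.2 to 421. It had at most 2 counts in any WT or X7/C24 library and 0 in C24_1. CG32581, now sordd2 (chromosome X, 15796908 to 15799162), had 0, 7 and 12 counts in C24_2, C24_3 and C24_4 and 270, 330 and 31 in the second round. The ratio of its sums was 0.0338 (0.0202 to 0.0532), and its adjusted p was 0.0707. It had 0 counts in WT_1, WT_2 and C24_1 but 402 in WT_3 and 238 to 428 in the other WT and X7/C24 libraries. C24_7 was the second-round library that stood nearest to the pilot in both genes. Whether the larvae of the rounds differed in stock or cross was not tested.

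**Figure D5:**
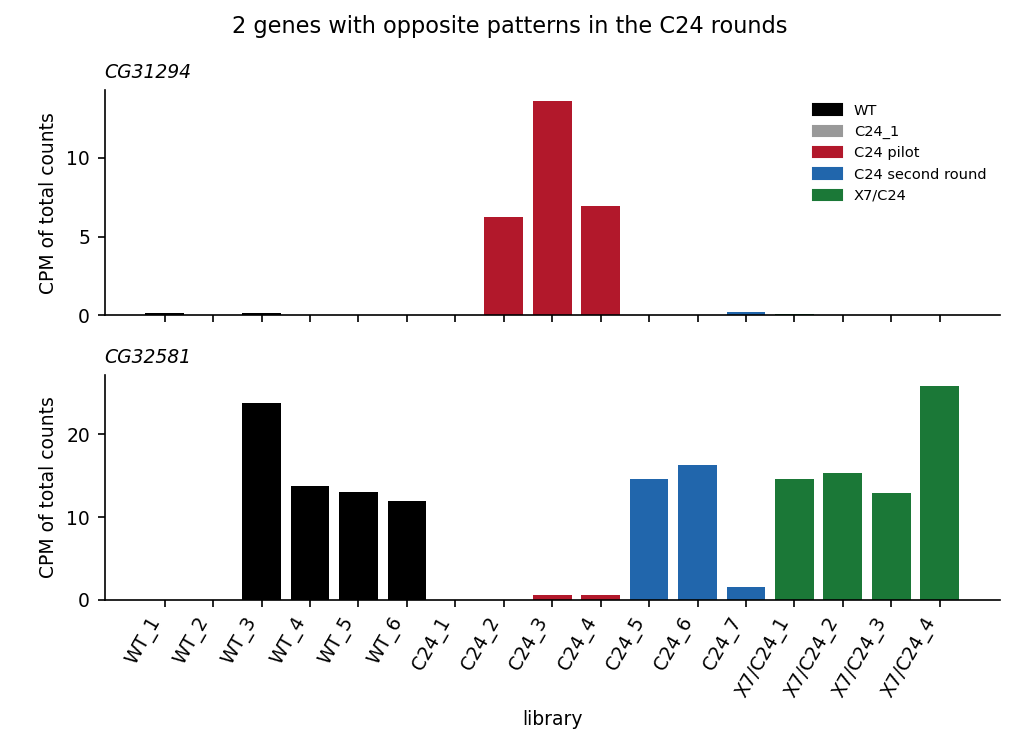
CPM of total counts of CG31294 (top) and CG32581 (bottom) in all 17 libraries, coloured by group. CG31294 is seen in the 3 C24 pilot libraries and is near 0 elsewhere, while CG32581 is near 0 in C24_2 to C24_4, WT_1, WT_2 and C24_1 and low in C24_7.

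The WT pools allow the same contrast in another genotype, with no library shared, but with WT_3 as the lone pilot library used here. WT_1 and WT_2, whose neuron list summed to 871 and 225 CPM of total counts against 6760 in WT_3, were left out. The study advised against further use of WT_3 as well, for its low GAL4 level. Against WT_4, WT_5 and WT_6, 5800 of 10011 genes (57.9%) passed the threshold, 2866 higher (28.6%) and 2934 lower (29.3%). With 1 library on one side, this test assumes that WT_3 varies like the second-round libraries. The spread between those 3 libraries sets its error. Of the 197 genes called in C24 and tested in WT, all had the same direction and 194 passed the threshold there, beside 89% of all 9354 genes tested in both with the same direction. Across these genes the log2 fold changes had a Pearson's r of 0.886 and a Spearman's rho of 0.908. With the length trend removed in both, r was 0.811 across 8791 genes.

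Ring gland genes were high in WT_3 as well. All 10 of the list were called higher, with a median log2 fold change of 3.07, where 28.6% of all genes were. spok had 462 CPM in WT_3 and 50.5, 51.9 and 25.3 CPM in WT_4, WT_5 and WT_6. jhamt had 6.90 CPM against 0.383, 0.890 and 0.311 CPM. The median of genes under 1 kb was 0.83 and that of genes of at least 8 kb was -1.54, beyond the C24 values in both directions. Fat body genes, which had a negative median in C24, had a median of 0.39 in WT (0 of 7 called higher, 1 lower), and salivary gland genes 1.26 (3 of 7 called higher). Whether the contrast between rounds differed between C24 and WT was tested with an interaction term over the 10 libraries. WT_3 was its lone WT pilot library, so a lack of calls cannot show that the contrasts were the same. The interaction log2 fold changes of CG31294 and CG32581 were 5.1 and -5.5, and neither gene was called. edgeR called 0 of 10198 genes (lowest adjusted p = 0.83), and 286 (2.8%) had an unadjusted p under 0.05. With the length trend removed 0 of 9604 genes were called. In the joint fit, which borrows the spread of the WT libraries, the C24 contrast called 2443 genes, 1546 higher and 897 lower, and all 199 genes were among them.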

How the data were processed

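RNA of dissected larval CNS was poly-A selected and sequenced as paired ends. The authors aligned the reads with BWA, removed duplicates with SAMTools and deposited whole-number counts per gene from HTSeq, without normalization and without regard to strand, so that overlapping genes cannot be told apart. The size factors and normalized counts that the authors also deposited were not used. Genotypes come from the sample titles; rounds, cDNA amounts and kit sets come from the study's methods and supplement. The study calls each dissected pool a biological replicate but the sources used here name no separate crosses, so p-values measure the spread between these pools.

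Counts of the 6 libraries were scaled by TMM and tested with edgeR 4.0.16 (R 4.3.3; filterByExpr, quasi-likelihood test, two-sided, Benjamini-Hochberg adjusted p under 0.05 over all genes tested). All adjusted p-values are from this test unless another tool (DESeq2 1.42.0, limma 3.58.1) is named. Fold changes are pilot minus second round, on log2 scale, and log2 CPM used a prior count of 2. Exon lengths and coordinates are from BDGP6, a later build than the one the authors used, and 13153 of 13872 genes (94.8%) had one. The length trend was a loess curve (span 0.5) over the 8130 genes that reached 10 counts in each of the libraries. Of 575 list entries 573 were matched to the count table.

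The libraries compared, the lists and the tests were chosen with earlier results of these data known. Named genes were the study's markers, up to 8 of the largest rises and of the largest falls among genes past the threshold without overlap whose mean log2 CPM reached 1 (8 rises and 1 fall), 3 genes per library that exceeded 5 CPM and stood highest above the next library, and the 3 most abundant genes of each list and of the longest and shortest classes. Genes outside this rule were chosen after their values were seen. They are marked so in the text, or are the list members sad, sro, tor, Akh, eater, Hml, brp, Snap25, futsch, Megalin, RpL41, cype, SmG, SmB, mRpL12 and mRpL13, and CG42807. On simulated counts with 200 genes changed 2-fold, the test recovered 78% with 4.88% of calls false. A trend on exon length was also simulated, at a lower spread between libraries, so its runs cannot be set against the first. With this trend left in, 77.2% of calls were false and 68% of changed genes were recovered. With it removed 3.02% were false and 96.5% were recovered. The simulated trend was of the kind that the correction removes, so this gain was fixed by the setting.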

Additional observations from a re-analysis of the deposited data

How the results depend on the processing

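The count of 199 genes depended on the setting. It was 2233 with DESeq2 (1156 higher, 1077 lower), 1 with limma-voom and 1 with a term for the kit set, 344 with total counts, 445 with the length trend removed, 457 with the trend taken on the longest transcript, 2443 in the joint fit with WT and 0 with C24_1 added (899 at an unadjusted p under 0.05). With C24_3 and C24_6 both left out it was 3969. Leaving out each library in turn gave 0 to 303, and with the length trend removed 2 to 853 (473 without C24_3, 82 without C24_6). It was 155 with the size factors of DESeq2, 273 without a filter, 232 where each library had to reach 10 counts, and 166 at 2-fold. The spread within the pilot ran from 9.556% to 27.15% and within the second round from 6.987% to 20.35% with each library left out. The difference in length index was -0.83 to -1.46 under the other definitions and -1.34 to -0.76 with each library left out. Among 155 named genes, 3 that were not called and had negative values were called higher with the length trend removed and C24_2 left out, namely trh (0.5509), cac (0.4083) and CadN (0.5627). Of 3604 pairs of named gene and setting, 2867 kept their side of the threshold, 514 lost and 220 gained a call. In 273 pairs the sign changed where neither fit called the gene. The alternatives with the trend on the longest transcript, with C24_3 and C24_6 left out, and with the trend removed and a library left out were chosen after the data were seen. The cause of these shifts was not tested.

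No paired analysis was possible because the replicate numbers of the rounds do not overlap. A correction for GC content was not run. With 3 libraries a round the exact test cannot pass 0.05, and 3 counts correspond to 0.148 to 0.275 CPM, below which levels are not resolved. Round, kit version, software and cDNA amount cannot be told apart.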
